A study of Mus musculus with 3 samples.

Results

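The transcripts of the core nonsense-mediated decay (NMD) machinery were followed in a YTHDF2 RNA immunoprecipitation sequencing (RIP-seq) experiment in mouse embryonic stem cells (ESCs). The 9 members were taken by gene symbol from the 49997 genes of the count table, namely Upf1, Upf2, Upf3a, Upf3b, Smg1, Smg5, Smg6, Smg8 and Smg9. All 9 were in the table and all 9 were among the 19601 genes left to test after those with few counts were dropped. Both groups came from E14 mouse ESCs given doxycycline (Dox) for 24 h, and they consisted of 1 input library and 2 libraries of RNA recovered with an antibody to YTHDF2 (IP 1 and IP 2). Per the study, its ESCs carry a Dox-inducible Dux transgene and a tdTomato reporter driven by the Mervl promoter, so that every library here comes from Dux-induced cells, including the input. Neither an untreated culture nor an IP with a control antibody was analysed here. Whether the 2 IP libraries came from separate cultures is not stated in the labels, so p-values measure only the spread between these libraries, which may be technical.

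NMD removes mRNAs on which translation ends too early, typically with an exon junction complex still bound downstream of the stop codon. UPF1, an RNA helicase, is held at the terminating ribosome and is contacted by UPF2, which in turn binds UPF3A or UPF3B, the paralogs that reach the exon junction complex. The kinase SMG1, kept in check by its partners SMG8 and SMG9, phosphorylates UPF1, after which SMG6 cuts the mRNA and SMG5 brings in deadenylation and decapping enzymes. Several of these mRNAs are known in mammalian cells to be NMD substrates themselves. YTHDF2, a reader of N6-methyladenosine (m6A), promotes the decay of the RNAs it binds, and UPF1 is among the decay factors known to interact with it. The comparison below asks how much of each factor's own mRNA came down with YTHDF2, not what the encoded proteins did.

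Total counts were between 35259827 and 36986994 per library, and a floor of 3 counts stood between 0.0811 and 0.0851 CPM (counts scaled by the library total). The pluripotent markers summed to 8170 CPM in the input and 8870 and 8806 CPM in IP 1 and IP 2, whereas the 5 fibroblast markers summed to 29.11 CPM in the input and 15.96 and 17.08 CPM in the IP libraries, with Col3a1 at 0 counts throughout. The 3 trophoblast markers, of which Eomes supplied nearly all counts, summed to 24.98, 54.11 and 52.1 CPM in the same order, and the 4 primitive endoderm markers to 8.219, 14.55 and 9.112 CPM. The 6 markers of the 2-cell-like state summed to 1682 CPM in the input and to 2788 and 2779 CPM in the IP libraries. The part of any of these cell states in the values below was not tested. Over 12620 genes averaging 100 counts or more, the log2 ratio of IP 1 to IP 2 had an SD of 0.205. Because 1 input served both IP libraries, variation between inputs was not measured.

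Most m6A sites carry the letters GGAC or a close relative of them, and in mRNAs the mark gathers around the stop codon. The counts are per gene and do not place YTHDF2 on a transcript, so the letters are shown only as what each mRNA offers there. For the 5 members with the largest differences between IP and input, a GGAC is printed from the RefSeq transcript with the longest coding sequence. It is the nearest to the stop codon of those whose printed window lies within a single exon. A nearer GGAC at an exon junction would be passed over. Windows run 5′ to 3′ in the sense of the mRNA, with 11 bases on each side and GGAC in capitals (GRCm38.p6, the assembly of mm10).
Smg5: catgccagtgtGGACgtcaagaacgt
Upf1: gcggccagggaGGACgacagagcgga
Upf3a: aggatcgcctgGGACacaaggcccag
Upf3b: gattccccagtGGACaaaaagcagga
Smg6: gtgggctgaggGGACcacactggggc

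The Smg5 window (chr3:88361046-88361071, plus strand) lay in coding sequence, with GGAC 46 bases before the stop codon in exon 22 of 22. The Upf1 window (chr8:70332289-70332314, minus strand) lay in the 3′UTR, 180 bases after the stop codon. The Upf3a window (chr8:13798446-13798471, plus strand) and the Upf3b window (chrX:37092552-37092577, minus strand) were both coding, at 12 and 49 bases before the stop codon. The Smg6 window (chr11:75162942-75162967, plus strand) began in the last bases of the coding sequence, with GGAC starting 3 bases after the stop codon. These windows were chosen for nearness to the stop codon, so their distances cannot set transcripts higher in IP against those lower. Across 19158 protein-coding genes of the GENCODE annotation of the same assembly, 58.1% held GGAC on the sense strand within 100 bases of the stop codon on either side. Among the members 8 of 9 did, the exception being Upf1.

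The 9 transcripts did not move as a group. Relative to the input, Smg5, Upf1 and Upf3a were higher in both IP libraries, Smg6, Upf3b and, by a small margin, Smg1 were lower in both, and Upf2, Smg8 and Smg9 did not pass the test. No member was called enriched, that is, none had an adjusted p under 0.05 in the quasi-likelihood test of edgeR together with a fold change over 2, against 15.2% of all tested genes. Smg6 was the 1 member called depleted, against 14% of all tested genes. At any fold change, 3 of the 9 members were higher and 3 were lower at that adjusted p, against 28.5% and 30.1% of all tested genes. These shares of the members were near the background for all genes. The median log2 fold change of the members was −0.15, compared with 0.0065 for all tested genes, whose quartiles were −0.72 and 0.81. With the dispersion fixed at 0.1 instead of being estimated from the IP libraries, no member passed in either direction.

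**Figure D1:**
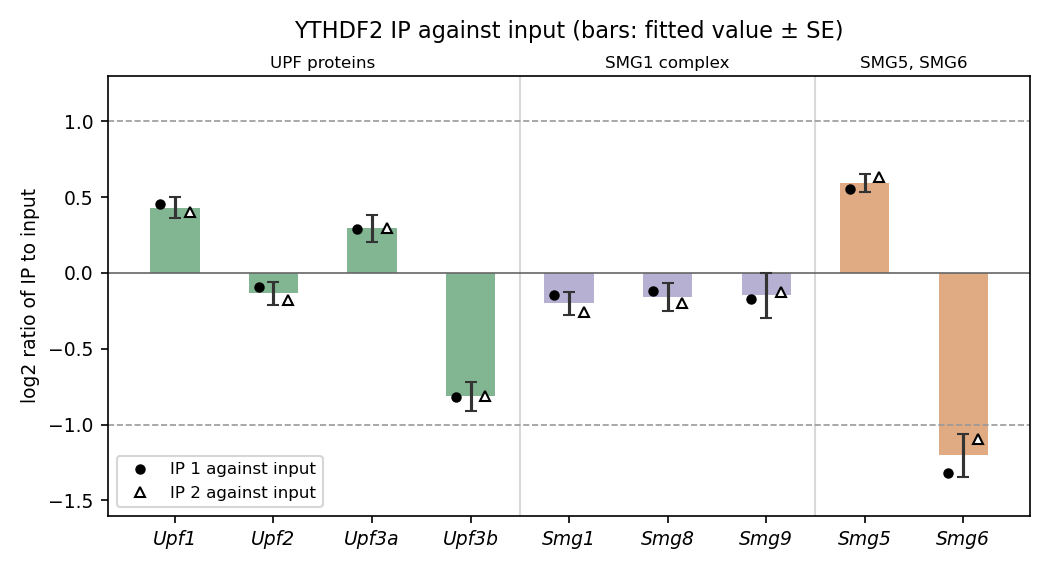
The vertical axis is the log2 ratio of YTHDF2 IP to input for each member, with bars for the fitted value of the edgeR model ± SE, filled circles for IP 1 and open triangles for IP 2, each against the 1 input library. Only the Smg6 bar passes a dashed line, which marks a fold of 2, and the IP libraries lie on the same side of 0 for every member.

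Among the UPF transcripts, Upf1 and Upf3a were higher in IP, Upf3b was lower, and Upf2 did not pass the test. Removal of a trend on GC content, described below, put Upf1 at −0.06, where it did not pass, and Upf2 at 0.55, where it did. Upf1 (chr8:70331493-70353423, minus strand, 24 merged exons) was counted 4331 times in the input, 6071 times in IP 1 and 5923 times in IP 2. Both IP libraries were above the input, by log2 ratios of 0.46 and 0.40. The fitted log2 fold change was 0.43 ± 0.069 (SE), a 1.35-fold difference with an adjusted p of 8.16e-08 in the edgeR test, and it lay above 64.3% of all tested genes. In the RefSeq model of Upf1 the 3′UTR of 990 bases contains 1 exon junction, which the model used for no other member has. Of the exonic bases of Upf1, 2.08% are shared with Gdf1 and 2.00% with Cers1 on the opposite strand, all of them in the 3′UTR, and reads that fell on both genes were not counted.

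Upf2 (chr2:5951447-6056703, plus strand), whose protein bridges UPF1 and UPF3, was counted 3295 times in the input, 3157 times in IP 1 and 3016 times in IP 2. Its log2 ratios of −0.09 and −0.18 gave a fitted value of −0.13 ± 0.077 (SE), with an adjusted p of 0.132 in the edgeR test.

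The paralogs Upf3a and Upf3b differed in direction as scaled here, but not after removal of a trend on GC content, which left Upf3a at −0.01 and Upf3b at −0.18, with neither past the test. Upf3a (chr8:13785055-13798723, plus strand) reached 2037 counts (input), 2547 counts (IP 1) and 2585 counts (IP 2), and its log2 ratio was 0.29 in each IP library. Its fitted value of 0.29 ± 0.086 (SE), or 1.23-fold, had an adjusted p of 0.00244 in the edgeR test, and with a trend on exonic length removed it was 0.19 with an adjusted p of 0.0552. Upf3b, on the X chromosome (chrX:37091678-37110471, minus strand), reached 2277 counts (input), 1318 counts (IP 1) and 1346 counts (IP 2). Both IP libraries were well below the input, by −0.82 and −0.81 on the log2 scale. The fitted value of −0.81 ± 0.094 (SE), or 1.76-fold lower in IP, had an adjusted p of 3.48e-12 in the edgeR test and lay above 22.4% of all tested genes. The log2 fold change of Upf3a exceeded that of Upf3b by 1.11 in IP 1 and 1.10 in IP 2, a 2.15-fold difference between the paralogs (SE of the log2 difference 0.128, the genes taken as independent). On the per-length scale, where counts were divided by exonic length and library total, Upf3a stood 2.25-fold over Upf3b in the input and 4.85-fold and 4.82-fold over it in the IP libraries. These folds depend on the lengths used, which were those of merged exons, 2262 bases for Upf3a and 5682 for Upf3b. Their RefSeq models have 1402 and 2344 bases.

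The 3 transcripts of the SMG1 kinase complex stayed close to the input, and none differed by more than 1.15-fold in the fit, although without a trend on GC content Smg9 was at −0.49 and Smg8 at −0.21, both past the test. Smg1 (chr7:118131308-118244437, minus strand), which encodes the kinase and has the longest exonic sequence of the members at 16415 bases, was counted 3502 times in the input, 3236 times in IP 1 and 3032 times in IP 2. Its log2 ratios were −0.14 and −0.26, and the fitted value of −0.20 ± 0.077 (SE) had an adjusted p of 0.021 in the edgeR test. That adjusted p is fragile, since 6 of 11 alternatives with a test did not keep it under 0.05. Among them were DESeq2 (adjusted p of 0.139) and scaling to total counts (0.258), and a further alternative turned the sign of Smg1. Smg8 (chr11:87077732-87086777, minus strand) was counted 2024 times in the input, 1900 times in IP 1 and 1825 times in IP 2, with a fitted value of −0.16 ± 0.091 (SE) and an adjusted p of 0.128 in the edgeR test. Smg9 (chr7:24397517-24422777, plus strand) had the fewest input counts of the members, 626, beside 568 in IP 1 and 595 in IP 2. The fitted value of Smg9, −0.15 ± 0.148 (SE), had the widest error of the 9, with an adjusted p of 0.406 in the edgeR test.

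The widest contrast was between Smg5 and Smg6, whose products act on phosphorylated UPF1. Smg5 (chr3:88336259-88362338, plus strand), which encodes an adaptor for deadenylation and decapping, was the most abundant member and the highest in IP. The input held 7540 counts, IP 1 held 11312 and IP 2 held 12082, and both log2 ratios were positive, at 0.56 and 0.63. The fitted value of 0.59 ± 0.060 (SE), or 1.51-fold, had an adjusted p of 2.25e-14 in the edgeR test and lay above 69.1% of all tested genes.

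Smg6 (chr11:74925854-75164448, plus strand), which encodes the endonuclease, was counted 982 times in the input, 402 times in IP 1 and 476 times in IP 2. Its log2 ratios of −1.32 and −1.09 both passed a 2-fold decrease. The fitted value of −1.20 ± 0.141 (SE), or 2.30-fold lower in IP, had an adjusted p of 6.16e-12 in the edgeR test, and 13.5% of all tested genes lay below it. With the dispersion fixed at 0.1 the adjusted p was 0.112. Exons of Smg6 share 1629 bases, or 25.79% of their length, with Hic1 on the opposite strand. In the RefSeq transcript used above, the shared stretch takes in the whole 3′UTR of 1498 bases and 131 coding bases, and a further 150 bases at the 5′ end are shared with Srr. Such shared reads were not counted, so the Smg6 values come from the rest of its exons, and the stretch around its stop codon printed above was outside the counted bases. The Smg5 log2 fold change exceeded that of Smg6 by 1.87 in IP 1 and 1.72 in IP 2.

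Ordered by log2 fold change, the members ran Smg5, Upf1, Upf3a, Upf2, Smg9, Smg8, Smg1, Upf3b and Smg6. The ranges spanned by the 2 IP libraries overlapped between Upf2 and Smg9, between Smg9 and Smg8 and between Smg8 and Smg1, so the order among these neighbours was not resolved. The ranges of all other neighbours were apart, but each rests on 2 values that share the counting error of the same input. The fitted values of Upf1 (0.43 ± 0.069, SE) and Upf3a (0.29 ± 0.086) lay close, as did those of Smg5 (0.59 ± 0.060) and Upf1. Ranges that were apart therefore do not by themselves settle the order.

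**Figure D2:**
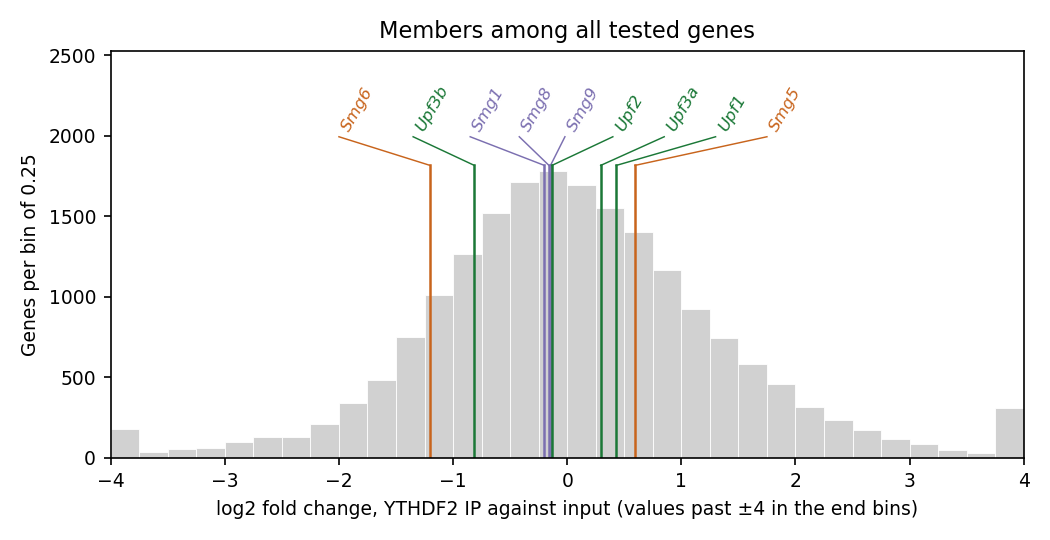
The histogram shows the log2 fold change of all 19601 tested genes in bins of 0.25, with values past ±4 placed in the end bins, and each coloured line marks a member. The members run from −1.20 (Smg6) to 0.59 (Smg5), and 7 of them lie between the quartiles of all genes (−0.72 and 0.81).

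Levels per exonic length were compared between members as RPKM, that is, counts scaled by the kilobases of exon and the library total. Lengths were those of the merged exons of all annotated transcripts, and the order and folds between members depend on that choice. For Upf3b the merged exons came to 5682 bases, against 2344 in its RefSeq model, and for Smg9 to 4485 against 2232. For Smg6 they also include the bases shared with Hic1 and Srr, where reads were not counted, so its RPKM is understated. On these lengths Smg5 was highest in the input at 34.7 RPKM, followed by Upf1 at 24.36 and Upf3a at 24.35, which cannot be ordered. Smg8 stood at 17.0 RPKM, Upf3b at 10.8 and Upf2 at 10.3. The lower end held Smg1 at 5.77, Smg6 at 4.20 and Smg9 at 3.77. The place of Smg6 among these is not settled because of its uncounted bases. In IP 1 and IP 2, Smg5 reached 54.6 and 57.3 RPKM, whereas Smg6 was at 1.81 and 2.10. The highest member was therefore 9.19-fold over the lowest, Smg9, in the input. In the IP libraries it was 30.3-fold and 27.3-fold over the lowest, Smg6, and the uncounted bases of Smg6 widen these 2 folds. On the same lengths, the ranks in both IP libraries were those of the input apart from Upf2 with Upf3b and Smg6 with Smg9, which exchanged places. Summed over the 9 members, the counts made up 719.6 CPM in the input and 865.3 and 860.4 CPM in the IP libraries, and Smg5 alone supplied 203.9, 320.8 and 336.7 CPM of these. For Smg8, which the annotation also places on an alternate scaffold, the length of the chromosome 11 copy, 3221 bases, was used.

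**Figure D3:**
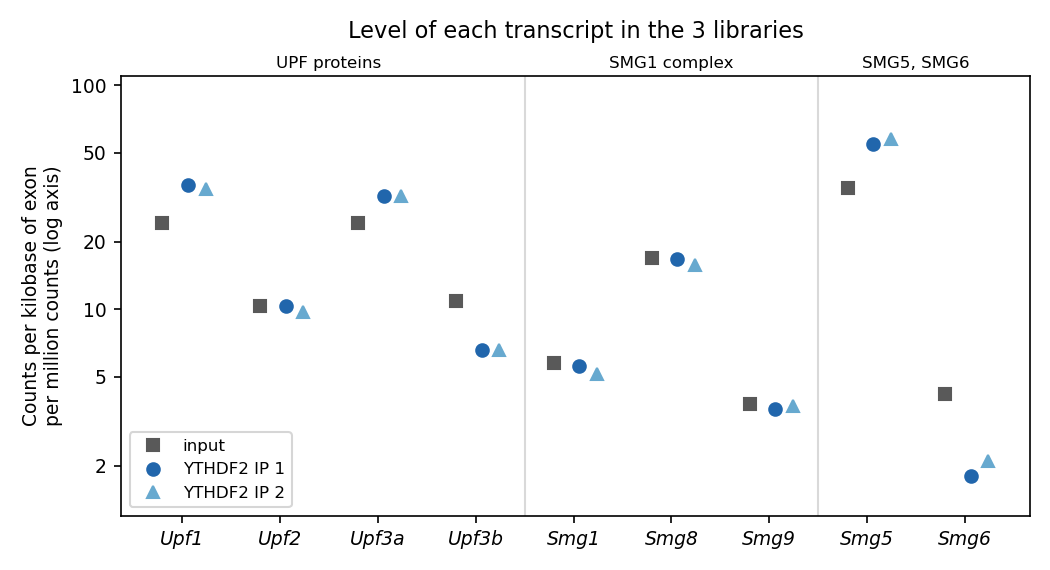
Each point is the RPKM of a member in the input (squares), IP 1 (circles) or IP 2 (triangles), on a log axis. Lengths are those of merged exons, on which the order of the members depends, and Smg6 is understated by its uncounted bases. The IP points sit above the input for Upf1, Upf3a and Smg5, below it for Upf3b and Smg6, and beside it for the other members.

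The position of some members, but not of all, followed the base composition of their exons. Across 19536 tested genes, which are not independent, the log2 fold change correlated with exonic GC content (Pearson r 0.26, Spearman rho 0.31). Upf1 (58.5% GC), Upf3a (55.4%) and Smg5 (54.0%) are GC-rich, whereas Upf2 (40.7%) and Upf3b (41.4%) are GC-poor, exceeding only 5.97% and 8.14% of the tested genes in GC content. Genes of 58 to 60% GC had a median log2 fold change of 0.50, close to the 0.43 of Upf1. Genes of 54 to 56% GC had a median of 0.25, beside 0.29 for Upf3a, and genes of 40 to 42% GC had a median of −0.61, with Upf3b below it at −0.81 and Upf2 above it at −0.13. Smg9, which at 56.2% is richer in GC than Upf3a and Smg5, went against this, at −0.15 where genes of 56 to 58% GC had a median of 0.32. Smg6 (51.1% GC) lay at −1.20, below the lower quartile of −0.57 for genes of 50 to 52% GC, whose median was 0.12. Smg5 lay at 0.59, above the median of 0.19 for genes of 52 to 54% GC and within their upper quartile of 0.95.

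When a smooth trend on GC content was removed, the values of 4 members changed sign. Upf1 went to −0.06, with an adjusted p of 0.462 in the edgeR test, and Upf3a to −0.01 (adjusted p of 0.931), so neither passed. Upf2 became 0.55 with an adjusted p of 4.01e-09, and Smg1 became 0.10 (adjusted p of 0.272). Upf3b was reduced to −0.18 (adjusted p of 0.0883), whereas Smg9 moved away from 0 to −0.49 (adjusted p of 0.00317) and Smg8 to −0.21 (adjusted p of 0.0432). Smg5 at 0.36 and Smg6 at −1.31 kept their direction and their adjusted p under 0.05. The part of base composition in these values was not tested beyond this.

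**Figure D4:**
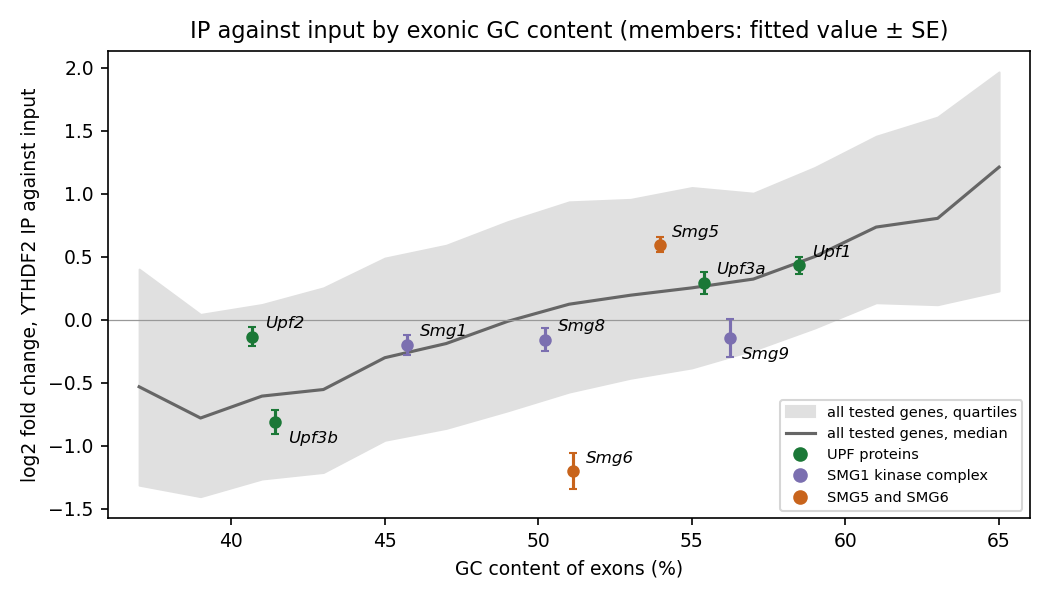
The horizontal axis is the GC content of the exons and the vertical axis the log2 fold change of IP against input, with members as points (fitted value ± SE), the median of all tested genes in bins of 2% GC as the line and their quartiles as the grey band. Upf1 and Upf3a lie near the median line and Smg6 lies below the band.

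Other features told the members apart less clearly. GGAC made up 2.25 sites per kilobase of exon in Smg1 and 6.63 in Upf3a, compared with a median of 3.94 over the tested genes, and Smg6 (5.38) held more than Upf1 (4.99) and Smg5 (3.24). The density of GGAC correlated with the log2 fold change across the same 19536 genes (Pearson r 0.19, Spearman rho 0.24). With 4 merged exons Smg8 had the fewest and with 64 Smg1 had the most, and neither differed from the input by 1.5-fold. The genes whose pattern was most like that of Upf1 were sought among 723 protein-coding genes within 0.25 of its mean log2 CPM, by the distance between the 2 log2 ratios. The nearest were B4galt6 (log2 fold change 0.42), Bud23 (0.42) and Rexo1 (0.43), a likeness that rests on 2 libraries and 1 shared input.

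The other genes of the pathway were described as 5 lists that together held 39 genes, all of them tested. Of these, 6 were called enriched and 4 depleted, and at any fold change 11 were higher and 20 lower, with a median log2 fold change of −0.25. Over all tested genes the corresponding shares were 15.2%, 14%, 28.5% and 30.1%, so that the calls past the fold of 2 were near the background. Among 8 further NMD factors none was higher, 4 were lower and 4 did not pass, and the median was −0.35. Under scaling to TPM or to total counts 2 of the 8 were higher and 4 lower. The list then held 0 depleted genes under TPM and 1 under total counts, and it held 1 without the GC trend, compared with the 2 below. With the dispersion fixed at 0.1, 0 of the 8 were depleted and 0 were lower. Ruvbl1, an ATPase that assembles kinases of the SMG1 family, was counted 5620 times in the input, 2689 times in IP 1 and 2957 times in IP 2, and was called depleted at −1.03. Pnrc2, a link from UPF1 to decapping, gave 1971, 942 and 920 counts in the same order and was called depleted at −1.12.

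Transcripts of the exon junction complex were mostly lower in IP, with 6 of 7 lower and 1 higher, against 30.1% and 28.5% of all tested genes, and a median log2 fold change of −0.78. Its core subunits Eif4a3, Magoh and Rbm8a were at −0.78, −0.95 and −0.54. Rnps1, a peripheral subunit that bridges to NMD, was counted 4976 times in the input, 1586 times in IP 1 and 1571 times in IP 2 and was called depleted at −1.70. Pym1, which takes the complex apart during translation, went the other way, with 2687 counts (input), 5899 counts (IP 1) and 5746 counts (IP 2) and a log2 fold change of 1.08, and was called enriched. Without the GC trend the median of this list was −0.34, Pym1 was no longer called and 5 of the 7 were lower. With the length trend removed none of the 7 was called enriched and 2 were called depleted, and with the dispersion fixed at 0.1, 1 was lower and 0 were higher.

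Among 6 genes of translation termination and cap binding, 5 were lower and 1, Gspt2, was higher, against 30.1% and 28.5% of all tested genes, and none was called at the fold of 2. The median was −0.48, which became −0.04 without the GC trend, with 2 genes higher and 3 lower. Of 8 genes for other kinases of the SMG1 family and for their assembly factors, 2 were higher (Telo2 and Tti2), 4 were lower and none was called at the fold of 2. Without the GC trend 1 was higher and 2 were lower, and the median of the list went from −0.32 to −0.02. With the dispersion fixed at 0.1, 0 genes of this list and 0 of the termination list were higher or lower. In this list Atm and Atr were at −0.64 and −0.65, further below the input than Smg1 at −0.20, while the value of Mtor was 0.19 with an adjusted p of 0.064 in the edgeR test.

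Transcripts known as NMD substrates gave the highest median of the lists, 1.04, with 5 of 10 called enriched and 1 depleted, against 15.2% and 14% of all tested genes. The list holds 4 noncoding RNAs and 6 mRNAs of stress-response proteins, and the 5 enriched transcripts were among the latter. Trib3, a pseudokinase of the integrated stress response, was counted 551 times in the input, 2446 times in IP 1 and 2424 times in IP 2, which put it at 2.10 on the log2 scale. The transcription factors Atf3 and Ddit3 were at 1.94 and 1.72, and Gadd45a and Gadd45b, which respond to DNA damage, were at 1.15 and 1.10. For Atf3 the input held 126 counts and the IP libraries 515 and 477. Atf4, the central transcription factor of that response, was higher at 0.97 without reaching the fold of 2. The noncoding Gas5 was called depleted at −1.55, with 462 counts (input), 164 counts (IP 1) and 160 counts (IP 2), while the noncoding Snhg1 and Snhg12 were at −0.05 and −0.14 and did not pass. The remaining noncoding RNA, Zfas1, was higher at 0.32, with an adjusted p of 0.0269 in the edgeR test. Gadd45a shares 19.44% of its exonic bases with E230016M11Rik on the opposite strand. Without the GC trend 4 of the 10 were called enriched, and with the dispersion fixed at 0.1, 3 were.

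**Figure D5:**
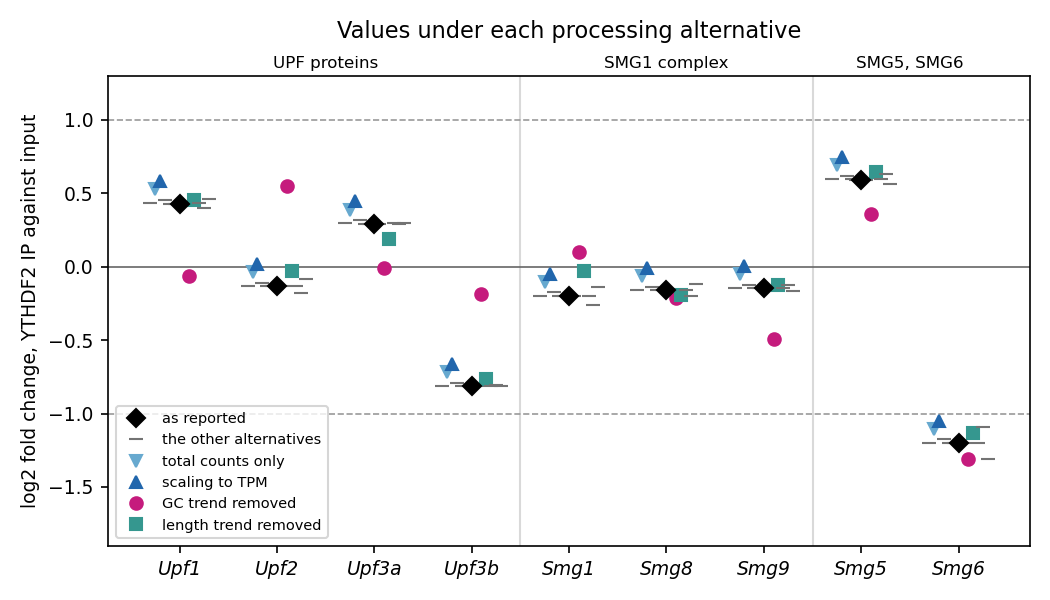
Each column holds the log2 fold change of a member as reported (diamonds) and under 13 alternatives, with the GC trend (circles), the length trend (squares), scaling to TPM (upward triangles) and total counts (downward triangles) marked apart. Removal of the GC trend moves Upf1 from 0.43 to −0.06 and Upf2 from −0.13 to 0.55, while Smg6 stays between −1.31 and −1.05 and Smg5 between 0.36 and 0.74.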

How the data were processed

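RNA of E14 ESCs was analysed as 1 input and 2 YTHDF2 IP libraries, grouped by sample titles. The methods describe an IP from cleared cell lysate, whereas the labels describe extracted total RNA as the material of the IP. Reads were aligned by the authors with hisat2 (2.2.1 in their processing notes) on mm10. The deposited values are raw counts per gene over RefSeq exons from featureCounts 2.0.3, run (as its header shows) without strand and with each mate counted. Multi-mapping reads and reads shared by several genes are dropped by its defaults. The floor of 3 counts covers counting error only.

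The analysis used edgeR 4.0.16 under R 4.3.3 (filterByExpr, TMM, robust dispersions, glmQLFit with its newer method, glmQLFTest, Benjamini-Hochberg over 19601 genes). The test has 1 residual degree of freedom, from the IP libraries alone. Calls required an adjusted p under 0.05 and a fold over 2. The SE is the log2 fold change over the root of its F statistic, and single-library log2 ratios used 0.5 added counts. The test was tested on simulated data. Coordinates and features came from RefSeq on GRCm38.p6, apart from the share of genes with GGAC near the stop codon, which came from GENCODE.

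The members and the gene lists were chosen with earlier results of these data known. The genes named were all members, called members of the 5 other lists and the 3 genes nearest Upf1. Eif4a3, Magoh, Rbm8a, Gspt2, Telo2, Tti2, Atm, Atr, Mtor, Atf4, Snhg1, Snhg12 and Zfas1 were named after their values were seen. Some results that the rule would give are not reported here. Alternatives were DESeq2 1.42.0, other scalings, filters, dispersions and quasi-likelihood settings, halved counts, removal of GC or length trends, and leaving out each IP library.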

Additional observations from a re-analysis of the deposited data

How the results depend on the processing

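Of 13 alternatives per member, the quasi-likelihood setting was chosen after seeing the data. Removal of the GC trend turned the sign of Upf1 (−0.061), Upf2 (0.547), Upf3a (−0.010) and Smg1 (0.10) and moved the member median to −0.061. Scaling to TPM, under which the median over all genes went from 0.0065 to 0.16, gave a member median of 0.0050, put the uncalled Upf2 and Smg9 at 0.017 and 0.0050, and left 2 other pathway genes depleted. Total counts and removal of the length trend gave member medians of −0.050 and −0.031. With the dispersion fixed at 0.1, 0 members were depleted, 0 higher and 0 lower, Upf1 (0.43) had an adjusted p of 0.654, and 3 other pathway genes were enriched and 2 depleted. That dispersion left 1577 enriched and 1531 depleted genes among all tested, compared with 2973 and 2743. The cause was not tested for these changes. Upf1 kept its direction and adjusted p under 0.05 in the other 9 alternatives with a test.

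Leaving out an IP library leaves no residual degrees of freedom, so it gave values with no test and no counts of calls. The member median was then between −0.178 and −0.115, and Upf1 between 0.40 and 0.46. No paired analysis was possible because 1 input without a replicate number served both IP libraries. Counts of the members were lowest for Smg6 and Smg9, whose SEs of 0.141 and 0.148 were the widest.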
